A study of Mus musculus with 6 samples.

Results

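The complement genes compared here are 33 named components, receptors and regulators of the complement system. They were chosen by name from what they are known to do, with earlier results of these data known. Of the 17854 genes in the expression table, 31 were members of this group, and 25 of these had enough counts to be tested. *Cfi* and *Mbl2* had no row and were not analysed here. Bulk RNA-seq was performed on Tomato+ cells from the knee cartilage of male C57BL/6 mice, in 2 groups of 3 libraries. The first group, labelled Inject Prrx, held Tomato+ cells derived from injected MSCs. Its donor cells were *Prrx1*-lineage mesenchymal stromal cells sorted from inguinal white adipose tissue of *Prrx1-Cre; R26tdTomato* mice and injected without culture into knees with osteoarthritis induced by transection of the anterior cruciate ligament. The hosts were C57BL/6 mice without the reporter, and the Tomato+ cells were recovered from the repaired cartilage. The second group, labelled Native Prrx, held endogenous articular Tomato+ cells of age- and sex-matched *Prrx1-Cre; R26tdTomato* mice, for which no surgery or injection is described. Both groups thus carried the Prrx1-Cre and R26tdTomato alleles. Cre driven by *Prrx1*, a gene of limb mesenchyme, permanently marks the descendants of cells that once expressed it, and is no marker of a cell's present type. Cell origin, host, surgery and injection differed together between the groups and cannot be told apart. The labels do not say which mouse each library came from, so p-values measure the spread between these libraries, which may in part be technical.

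Complement is a cascade of proteins that tags and lyses targets and calls in inflammatory cells. C1q on the classical route, mannose-binding lectins and ficolins on the lectin route, and factors B and D with properdin on the alternative route all lead to cleavage of C3, then of C5, and to assembly of the membrane attack complex. Most circulating complement proteins come from the liver, but C1q and properdin are made mainly by myeloid cells, and joint tissue makes several components itself. Clusterin and membrane proteins such as CD55 and CD59 hold the cascade back.

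The libraries held 22060628 to 24881796 expected counts, so 3 counts, the smallest level regarded as measurable, corresponded to 0.121 to 0.136 CPM (counts scaled to the library total), for counting error only. Endogenous replicate 1 stood apart from the other two: 3449 genes were at 0 counts in it, against 1323 and 1375. Member calls that changed without it are given with the member concerned. The labels call both groups chondrocytes. The 9 chondrocyte markers summed to 48965 to 49452 CPM in the endogenous libraries but to 1073 to 1118 CPM in the MSC-derived ones, and all 9 were lower there. The 12 macrophage markers and the 12 neutrophil markers were all higher in the MSC-derived libraries, at 15359 to 15520 against 388 to 543 CPM and at 46914 to 48842 against 2145 to 2998 CPM. The 6 erythroid markers were higher too, at 10178 to 10367 against 1542 to 2290 CPM. In RNA from a bulk sample, fewer cells of a type and less RNA per cell cannot be told apart. MSC-derived is therefore used here as the study's name for the group, not as a finding about its cells. How much of its RNA came from blood cells was not tested.

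Most complement genes differed in level between the MSC-derived and the endogenous cells, in both directions. The C1q chains, ficolin-A, properdin and the tested complement receptors were higher in the MSC-derived cells, whereas the classical components C1r, *C2* and C4, factors B and D, the late components *C6* and *C7* and clusterin were higher in the endogenous cells. By edgeR's quasi-likelihood test with Benjamini-Hochberg adjustment over 14289 genes, 12 of the 25 tested members (48%) were higher and 8 (32%) were lower in the MSC-derived cells at a threshold of 0.05. The background was high, since 31.3% of all genes tested were called higher and 30.3% lower, 61.6% in either direction. On the TPM scale with limma the split was 10 higher and 11 lower, and 21.9% and 41.7% over all genes. On TMM-scaled counts, the libraries of the groups did not overlap for 14 members that were higher and 9 that were lower, against 38.2% and 34.1% of all genes. The share of members called lower was thus close to that of genes at large, and the share called higher exceeded it. The members were chosen with earlier results of these data known, so this excess is no independent evidence about complement genes. The members' log2 fold changes (MSC-derived over endogenous) ran from -6.02 to 10.15, with a median of 0.59, compared with 0.05 over all genes. A log2 fold change of 8 or more in either direction was seen in 5 members, *C1qa*, *C1qb*, *C1qc*, *Fcna* and *Vsig4*, and in 0.686% of all genes tested. Those 5 were counted after their values were seen.

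**Figure D1:**
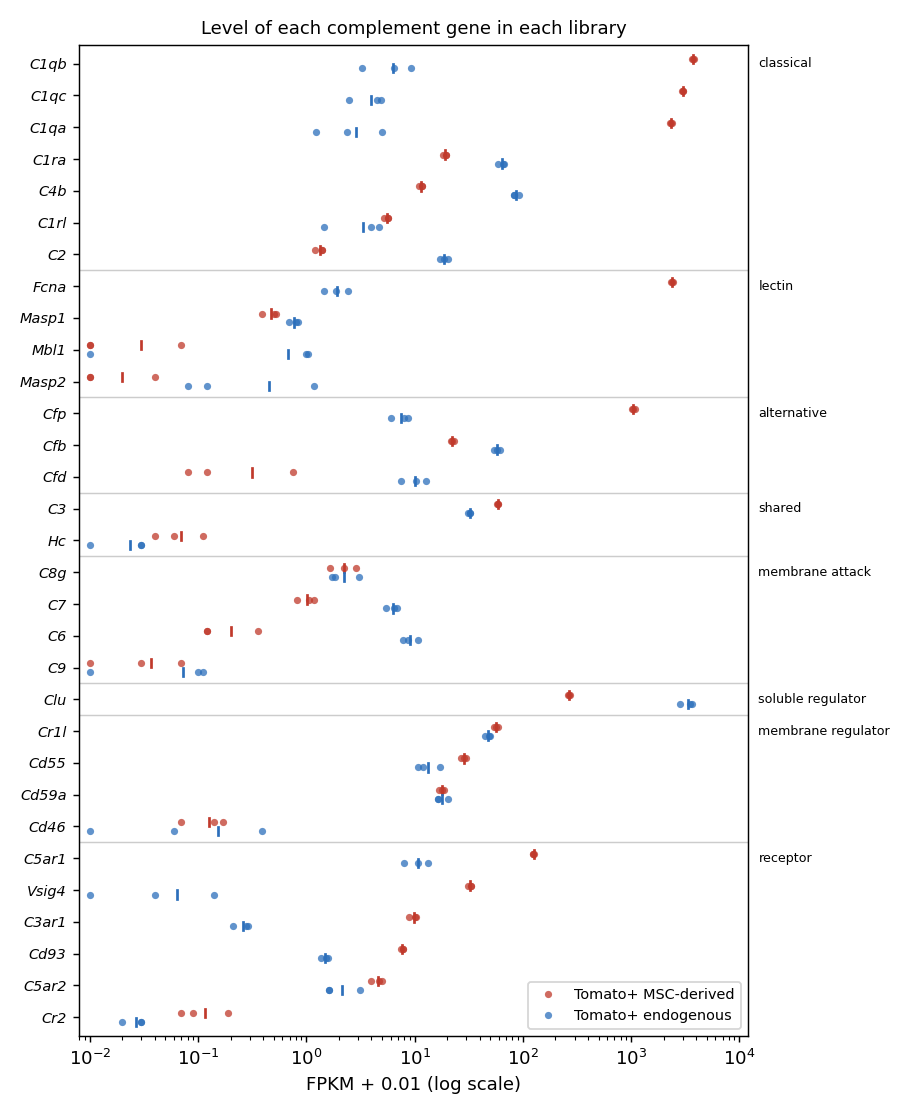
Level of the 31 complement genes in each library, as FPKM + 0.01 on a log axis, ordered by role in the cascade. Points are libraries and vertical ticks are group means of 3 libraries. The C1q chains, *Fcna* and *Cfp* sat at 1022 FPKM or more in the MSC-derived cells and at 9.27 FPKM or less in the endogenous cells, where *Clu* had 2817 FPKM or more.

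**Figure D2:**
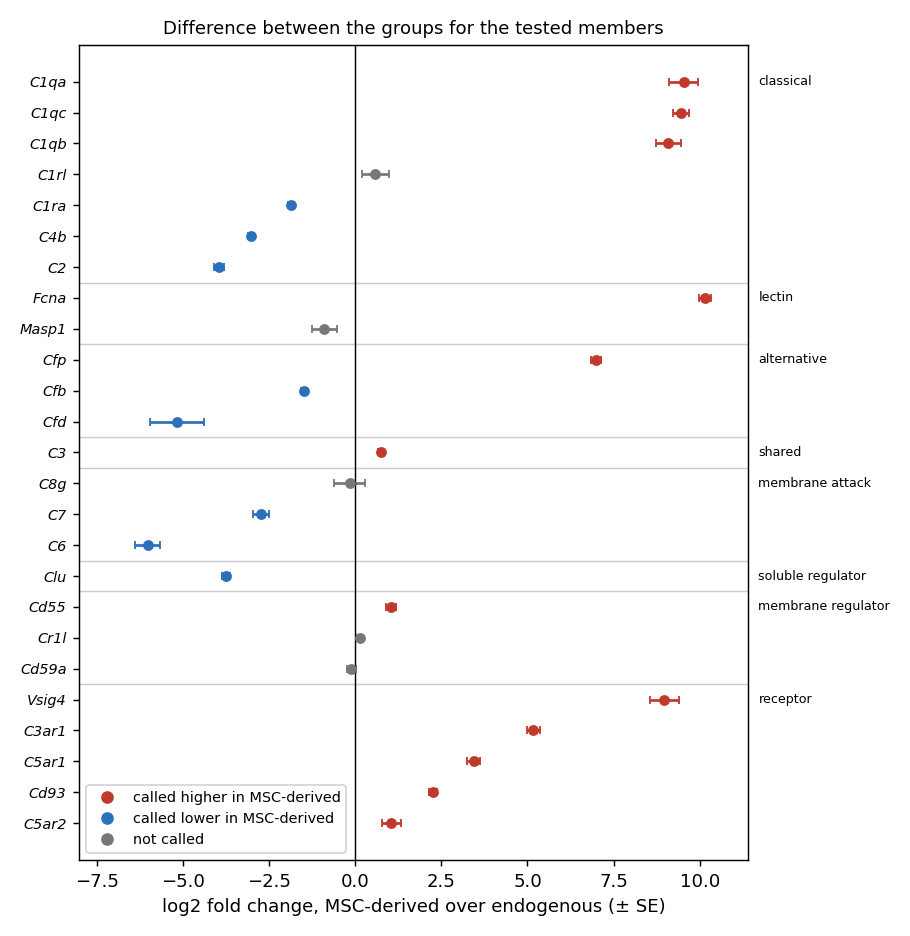
Log2 fold change of the 25 tested members, MSC-derived over endogenous, with bars of 1 standard error of the edgeR estimate. Red points were called higher (12), blue points lower (8) and grey points were not called (5). Each of the 5 tested receptors lies to the right of 0, and *C6* lies farthest to the left at -6.02 in this fit.

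The 3 chains of C1q, the molecule that recognises bound antibody and starts the classical route, were among the most abundant complement transcripts of the MSC-derived cells. *C1qa* stood at 2358, 2275.5 and 2362 FPKM (fragments scaled to transcript length and library size) in the 3 MSC-derived libraries and at 1.22, 2.39 and 5.02 FPKM in the endogenous ones. *C1qb* stood at 3847, 3684.5 and 3715 FPKM against 3.26, 6.50 and 9.27 FPKM. *C1qc* stood at 3029, 2982 and 2967 FPKM against 2.47, 4.87 and 4.44 FPKM. The groups did not overlap for any chain, and the MSC-derived libraries lay close together while the endogenous ones differed more among themselves. The endogenous levels rested on 26, 51 and 112 counts of *C1qa*, so they were above the floor. The log2 fold changes were 9.53 (SE 0.42, adjusted p = 1.06e-06) for *C1qa*, 9.08 (SE 0.36, adjusted p = 6.66e-07) for *C1qb* and 9.45 (SE 0.24, adjusted p = 1.10e-07) for *C1qc*, by edgeR with Benjamini-Hochberg adjustment. These correspond to 738-fold, 541-fold and 699-fold higher levels. Without endogenous replicate 3, which had the most *C1qa* counts of its group, the log2 fold change of *C1qa* was 10.20.

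The protein is assembled from equal numbers of the 3 chains. In the MSC-derived cells *C1qb* was 1.61 ± 0.0309 times (SD, n = 3) and *C1qc* 1.28 ± 0.0273 times (SD, n = 3) the level of *C1qa*, on the FPKM scale. In the endogenous libraries the ratio of *C1qb* to *C1qa* was 2.67, 2.72 and 1.85, and that of *C1qc* to *C1qa* was 2.02, 2.04 and 0.884. The ratios therefore spread more widely where the chains were low. The genes lie side by side on mouse chromosome 4 in the order *C1qb*, *C1qc*, *C1qa*, with 0 protein-coding genes between them in the RefSeq annotation.

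The remaining classical members are the proteases that C1q sets in motion and the substrates they cut. All of them but *C1rl* were lower in the MSC-derived cells. *C1ra*, the protease that activates C1s within the C1 complex, stood at 19.7, 19.6 and 18.3 FPKM in the MSC-derived libraries and at 58.6, 66.9 and 65.7 FPKM in the endogenous ones, a log2 fold change of -1.85 (SE 0.09, edgeR with Benjamini-Hochberg adjusted p = 1.60e-06). *C4b*, whose product is split by C1s and binds to the target surface, stood at 11.8, 11.0 and 11.6 FPKM against 82.0, 92.9 and 82.5 FPKM. *C2*, which supplies the catalytic part of the classical C3 convertase, stood at 1.19, 1.38 and 1.40 FPKM against 18.7, 20.5 and 17.2 FPKM. No library of one group reached into the other for these genes. The log2 fold changes were -3.02 (SE 0.09, edgeR adjusted p = 1.62e-07) for *C4b* and -3.95 (SE 0.15, edgeR adjusted p = 5.07e-07) for *C2*. *C4b* has a near-identical copy, *C4a*, which had no row in the table, so reads of the pair may have been counted together.

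*C1rl*, a C1r-like serine protease, was not called. Its level was 5.18 to 5.71 FPKM in the MSC-derived cells and 1.45 to 4.72 FPKM in the endogenous ones, and the log2 fold change was 0.59 with a 95% interval of -0.33 to 1.51 (edgeR, Benjamini-Hochberg adjusted p = 0.225). Its groups did not overlap, but the lowest value was that of endogenous replicate 1, and without that library the log2 fold change was 0.17. *C1rl* lies beside *C1ra* on chromosome 6, and the 2 neighbours did not share a direction of call. The classical route was thus split, with the 3 recognition chains higher and *C1ra*, *C2* and *C4b* lower in the MSC-derived cells.

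The lectin route had the member with the largest fitted change, which was exceeded by *Vsig4* and *C1qa* when endogenous replicate 3 was left out (9.99 against 10.48 and 10.20 on the log2 scale). *Fcna* encodes ficolin-A, a plasma lectin that binds acetylated sugars on microbes and activates the lectin proteases. Its levels were 2419, 2369.6 and 2326 FPKM in the MSC-derived libraries and 2.44, 1.87 and 1.46 FPKM in the endogenous libraries, and it ranked beside *C1qa*, whose range it overlapped, among the MSC-derived cells. The log2 fold change was 10.15 (SE 0.17, edgeR with Benjamini-Hochberg adjusted p = 3.39e-08), a 1137-fold higher level. *Masp1*, a protease that works with ficolins and mannose-binding lectins, did not follow *Fcna*. It stood at 0.38 to 0.52 FPKM in the MSC-derived cells and at 0.68 to 0.82 FPKM in the endogenous cells. Its log2 fold change was -0.89 (95% interval -1.74 to -0.05, edgeR with Benjamini-Hochberg adjusted p = 0.0635). *Masp1* was called lower in 6 of 20 alternative analyses. Among these were edgeR without endogenous replicate 1 (log2 fold change -0.93, adjusted p = 0.0173) and DESeq2 (adjusted p = 0.0249).

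*Masp2*, the lectin protease that cuts C4 and C2, and *Mbl1*, a mannose-binding lectin, were removed by the filter on low counts. *Masp2* had 2.04, 0 and 0 expected counts in the MSC-derived libraries and 28.7, 7.26 and 2.08 in the endogenous ones. *Mbl1* had 1, 0 and 0 counts against 0, 24 and 26. Both were thus near or below the floor in the MSC-derived cells, and *Mbl1* was at 0 in endogenous replicate 1. The lectin-route members other than *Fcna* were thus low in both groups.

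Promoters are shown for members with large increases, picked after their fold changes were seen, and several are known myeloid genes. PU.1, a transcription factor of macrophages and other myeloid cells, recognises DNA around the core GAGGAA. RefSeq (GRCm38.p6) gave promoter windows for 25 of the 33 members, and the 250 bases before each start were searched on both strands. *C1qa* had no window and is not shown. Capitals mark GAGGAA, or TTCCTC where it lies on the other strand. The windows are *C1qb* at chr4:136886201-136886450, *C1qc* at chr4:136892915-136893164, *Fcna* at chr2:25627975-25628224, *Vsig4* at chrX:96293439-96293688 and *Cfp* at chrX:20931556-20931805, all on the minus strand and printed 5′ to 3′ in the direction of transcription.
C1qb: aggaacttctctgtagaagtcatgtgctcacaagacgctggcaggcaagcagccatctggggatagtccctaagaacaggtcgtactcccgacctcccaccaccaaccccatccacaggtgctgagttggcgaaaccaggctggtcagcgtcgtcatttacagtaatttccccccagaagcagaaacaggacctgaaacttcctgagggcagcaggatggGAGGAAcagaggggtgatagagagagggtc
C1qc: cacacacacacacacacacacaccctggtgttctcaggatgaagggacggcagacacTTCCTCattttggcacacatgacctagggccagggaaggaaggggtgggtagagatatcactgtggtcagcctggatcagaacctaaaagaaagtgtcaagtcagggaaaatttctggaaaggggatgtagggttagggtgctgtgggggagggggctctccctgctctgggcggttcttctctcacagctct
Fcna: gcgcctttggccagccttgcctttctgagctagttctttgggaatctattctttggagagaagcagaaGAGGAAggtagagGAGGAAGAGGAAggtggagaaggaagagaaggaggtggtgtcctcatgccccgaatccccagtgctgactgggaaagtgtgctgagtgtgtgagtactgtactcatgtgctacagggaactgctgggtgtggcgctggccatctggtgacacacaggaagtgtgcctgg
Vsig4: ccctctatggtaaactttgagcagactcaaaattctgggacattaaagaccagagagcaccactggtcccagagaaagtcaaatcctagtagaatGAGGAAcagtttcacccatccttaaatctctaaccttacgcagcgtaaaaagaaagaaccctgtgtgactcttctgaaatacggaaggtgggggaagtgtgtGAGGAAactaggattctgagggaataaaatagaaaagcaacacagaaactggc
Cfp: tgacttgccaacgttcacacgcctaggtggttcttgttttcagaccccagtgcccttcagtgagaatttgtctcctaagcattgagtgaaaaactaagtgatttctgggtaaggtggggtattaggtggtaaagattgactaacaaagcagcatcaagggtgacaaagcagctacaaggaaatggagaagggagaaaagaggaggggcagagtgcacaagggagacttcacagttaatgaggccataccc
The core occurred 1 time each before *C1qb* and *C1qc*, 3 times before *Fcna*, 2 times before *Vsig4* and 0 times before *Cfp*. A pair of the copies in *Fcna* lie end to end. Over all 32851 windows of the same length 23.3% held it, and over the members 6 of 25 did, the others being *Cd59a* and *C5ar2*. The members' share was thus close to that of all windows. Since the genes shown were picked by fold change, the share among them is not a result. The C/EBP motif TTGCNNAA was found in 4 members (*C1rl*, *C3*, *C9* and *C5ar2*) and in 9.56% of all windows. The AP-1 motif TGANTCA was found in 2 members (*C8g* and *C3ar1*) and in 6.75% of all windows, and the interferon response motif (GAAA, any 2 bases, GAAA) in *Cd59a* and 2.98% of all windows. Matches of different motifs were counted separately and could overlap, and a match says only that the letters are present.

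The alternative route was also split. *Cfp* encodes properdin, which stabilises the alternative C3 convertase and is stored by neutrophils and made by macrophages. Its levels were 1077, 1022 and 1031 FPKM in the MSC-derived libraries and 6.01, 7.94 and 8.67 FPKM in the endogenous ones, a log2 fold change of 6.99 (SE 0.15, edgeR with Benjamini-Hochberg adjusted p = 6.89e-08). *Cfb* encodes factor B, the protease subunit of that convertase. It stood at 23.1, 21.8 and 22.02 FPKM in the MSC-derived libraries and at 61.1, 57.6 and 53.8 FPKM in the endogenous ones, a log2 fold change of -1.49 (SE 0.08, edgeR adjusted p = 3.36e-06). The stabiliser of the convertase was thus 127-fold higher while its protease subunit was lower in the same libraries.

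*Cfd* encodes factor D (adipsin), which cleaves factor B and is best known as a product of fat cells. It stood at 0.11, 0.07 and 0.74 FPKM in the MSC-derived libraries and at 7.41, 12.7 and 10.3 FPKM in the endogenous ones. The donor cells came from adipose tissue. The MSC-derived values rested on 2, 1 and 12 counts, so the size of the difference is uncertain, and replicate 3 held most of them. The log2 fold change was -5.17 (SE 0.79, edgeR with Benjamini-Hochberg adjusted p = 0.000879), and it lay between -6.89 and -4.68 when 1 library at a time was left out, the former without MSC-derived replicate 3. Of 6 adipocyte markers, 3 were tested, with 1 higher and 2 lower in the MSC-derived cells, and the summed level of all 6 was 183 to 198 CPM against 162 to 190.1 CPM. The like sums came from different genes. *Fabp4*, a fatty acid-binding protein, held most of the MSC-derived sum (181 to 196 CPM against 16.4 to 21.6 CPM). *Adipoq*, the adipocyte hormone adiponectin, held most of the endogenous one (141 to 167 CPM, against 0.489 to 1.27 CPM in the MSC-derived cells). Its decrease was called, as was that of *Cfd*. Factor B lies next to *C2* on chromosome 17, with 0 protein-coding genes between them, and both were lower.

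*C3*, the component on which all routes converge, changed little in comparison. It stood at 59.5, 57.2 and 58.6 FPKM in the MSC-derived libraries and at 32.8, 31.4 and 32.2 FPKM in the endogenous ones. The groups did not overlap, and the log2 fold change was 0.74 (SE 0.07, edgeR with Benjamini-Hochberg adjusted p = 5.85e-05), or 1.67-fold. *Hc*, the gene of C5, was too low to be tested, with 7, 4 and 12 counts in the MSC-derived libraries and 0, 3 and 3 in the endogenous ones.

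The genes of the membrane attack complex were at 10.8 FPKM or less in every library, and the called ones were lower in the MSC-derived cells. *C6*, which joins C5b to begin assembly of the pore, stood at 0.11, 0.35 and 0.11 FPKM in the MSC-derived libraries and at 7.83, 8.69 and 10.8 FPKM in the endogenous ones. The groups did not overlap, and the log2 fold change was -6.02 (SE 0.37, edgeR with Benjamini-Hochberg adjusted p = 5.95e-06) and rested on 6, 15 and 6 counts in the MSC-derived cells. Without MSC-derived replicate 3 it was -5.82, a smaller decrease than that of *Cfd* (-6.89). On TPM with limma it was -3.83, a smaller one than that of *Clu* (-4.18), but the 1 added before taking logs understates changes of low genes such as *C6*. *C7*, which anchors the growing complex in the membrane, stood at 0.81 to 1.17 FPKM against 5.41 to 6.94 FPKM, with a log2 fold change of -2.73 (SE 0.22, edgeR adjusted p = 2.72e-05). *C8g*, the small chain of C8, was not called. It ranged from 1.66 to 2.85 FPKM in the MSC-derived cells and from 1.73 to 3.07 FPKM in the endogenous ones, and the log2 fold change was -0.16 with a 95% interval of -1.23 to 0.91 (edgeR, adjusted p = 0.784). *C9*, which forms the wall of the pore, had 3, 1 and 0 counts against 0, 4 and 5 and was not tested. *C6* and *C7* lie on chromosome 15 with 1 protein-coding gene between them.

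*Clu* encodes clusterin, a secreted chaperone that binds the forming attack complex and keeps it out of membranes, and it was by far the most abundant complement transcript of the endogenous cells. It stood at 272, 268 and 264 FPKM in the MSC-derived libraries and at 2817, 3503 and 3639 FPKM in the endogenous ones. Endogenous replicate 1 had the lowest of the endogenous values, which still lay far above the MSC-derived ones. The log2 fold change was -3.75 (SE 0.11, edgeR with Benjamini-Hochberg adjusted p = 1.78e-07), a 13.5-fold lower level.

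Of the membrane regulators, 1 of 3 tested was called. *Cd55*, which speeds the decay of C3 convertases, stood at 28.6, 29.5 and 26.9 FPKM in the MSC-derived libraries and at 17.0, 10.8 and 11.9 FPKM in the endogenous ones. Its log2 fold change was 1.05 (SE 0.14, edgeR with Benjamini-Hochberg adjusted p = 0.000520), but on the TPM scale with limma it was 0.54 and no longer passed (adjusted p = 0.0533). *Cd59a*, which blocks the last step of the attack complex, stood at 16.8, 17.9 and 18.8 FPKM against 20.4, 16.3 and 16.6 FPKM. These ranges overlapped, and the log2 fold change was -0.11 with a 95% interval of -0.42 to 0.20 (edgeR, adjusted p = 0.498). On the TPM scale with limma *Cd59a* was called lower (-0.53, adjusted p = 0.0171). *Cd55* and *Cd59a* each have a close copy, *Cd55b* and *Cd59b*, with which reads may be shared, so their values are uncertain.

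*Cr1l* (Crry), a rodent membrane protein that limits C3 and C4 deposition on the cell's own surface, was the most abundant membrane regulator of both groups. It stood at 54.1, 56.1 and 59.0 FPKM in the MSC-derived libraries and at 48.5, 44.4 and 49.3 FPKM in the endogenous ones. Its log2 fold change was 0.13 with a 95% interval of -0.07 to 0.33 (edgeR, Benjamini-Hochberg adjusted p = 0.212). The call turned with the scale, since *Cr1l* was called higher on FPKM (0.25, limma adjusted p = 0.0226) and lower on TPM (-0.30, limma adjusted p = 0.0260), so no direction is given for it. *Cd46*, another inhibitor, had 6, 5 and 1 counts against 0, 2 and 12 and was not tested. In the annotation *Cd46* and *Cr1l* are neighbours on chromosome 1 that overlap by 74 bases.

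All 5 of the tested receptors were called higher, against 31.3% of all genes tested, by log2 fold changes of 1.05 to 8.97 (median 3.44). *Vsig4*, or CRIg, is a receptor for C3b and iC3b found on tissue macrophages. It stood at 31.2, 32.9 and 33.2 FPKM in the MSC-derived libraries and at 0.03, 0 and 0.13 FPKM in the endogenous ones, with 954, 960 and 915 counts against 1, 0 and 4. *Vsig4* was thus at or near 0 in every endogenous library. The ratio of summed counts, scaled by the effective library sizes, was 538, with an exact 95% counting interval of 230.1 to 1657, and the fitted log2 fold change was 8.97 (SE 0.42, edgeR with Benjamini-Hochberg adjusted p = 1.45e-06). Without endogenous replicate 3, which held 4 of the 5 counts, it was 10.48.

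The receptors for the anaphylatoxins, the small fragments that attract and activate leukocytes, rose by different amounts. *C3ar1*, the receptor for C3a, stood at 8.96, 10.2 and 10.2 FPKM against 0.20, 0.27 and 0.28 FPKM, a log2 fold change of 5.17 (SE 0.19, edgeR with Benjamini-Hochberg adjusted p = 4.73e-07). *C5ar1*, the main receptor for C5a, was the most abundant receptor in both groups, at 125, 128 and 124 FPKM against 7.95, 10.6 and 13.4 FPKM, a log2 fold change of 3.44 (SE 0.18, edgeR adjusted p = 3.05e-06). *C5ar2*, the second C5a receptor, stood at 3.97 to 4.99 FPKM in the MSC-derived cells and at 1.61 to 3.14 FPKM in the endogenous cells. Its log2 fold change was 1.05 (SE 0.27, edgeR adjusted p = 0.0110), and on the TPM scale with limma it did not pass (0.49, adjusted p = 0.160). *C5ar1* and *C5ar2* are adjacent on chromosome 7, with 0 protein-coding genes between them. *Cd93*, a surface protein once described as a C1q receptor and found on endothelial and myeloid cells, stood at 7.45 to 7.86 FPKM against 1.37 to 1.57 FPKM, a log2 fold change of 2.26 (SE 0.11, edgeR adjusted p = 2.13e-06). *Cr2*, the C3d receptor of B cells, had 31, 11 and 8 counts against 1, 3 and 4 and was not tested. Without endogenous replicate 1 both *Mbl1* and *Cr2* passed the filter, and *Mbl1* was called lower and *Cr2* higher. With *Masp1* also called lower, 13 members were higher and 10 lower in that fit, in which 37.8% of all genes tested were called higher and 38.6% lower.

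The make-up of the complement transcripts differed accordingly. The 3 C1q chains made up 68.7% to 69.2% of the members' summed FPKM in the MSC-derived libraries and 0.216% to 0.462% in the endogenous libraries. *Fcna* made up 17.8% to 18.2% against 0.0361% to 0.0760%, and *Clu* made up 2.02% to 2.06% against 87.7% to 89.8%. A few genes thus held most of the complement transcripts in each group, and they were different genes. The classical members other than C1q made up 0.280% to 0.290% against 4.20% to 5.01%. The members' summed level was 13009 to 13405 FPKM in the MSC-derived and 3212 to 4050 FPKM in the endogenous libraries. All genes together summed to 808701 to 813572 FPKM and 504768 to 573603 FPKM, so FPKM levels of the groups were not on quite the same scale, whereas shares within a library are free of this.

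**Figure D3:**
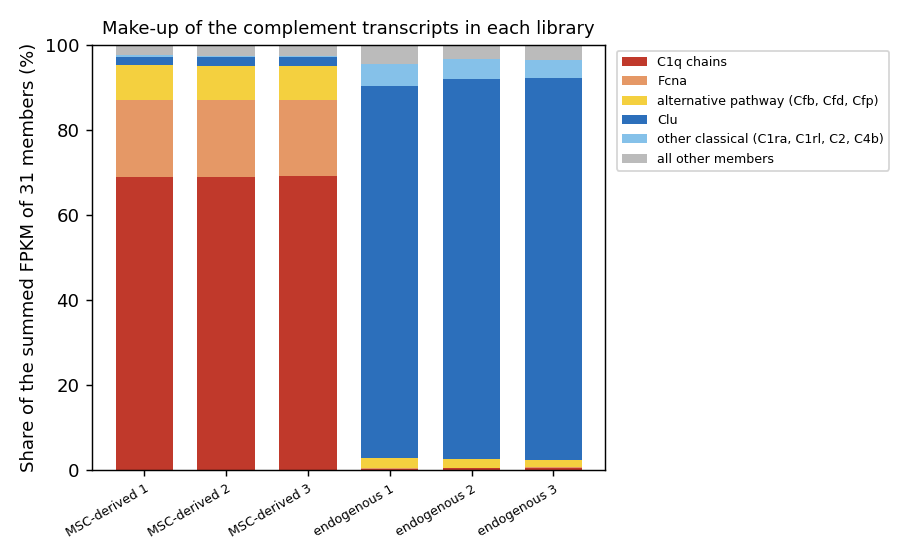
Share of the summed FPKM of the 31 complement genes held by each gene or set, in percent, for each of the 6 libraries (stacked bars). The C1q chains and *Fcna* fill most of each MSC-derived bar (68.7% to 69.2% and 17.8% to 18.2%), and *Clu* fills 87.7% to 89.8% of each endogenous bar.

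In order of level, the MSC-derived cells had *C1qb*, *C1qc*, *Fcna*, *C1qa*, *Cfp*, *Clu*, *C5ar1* and *C3* as their most abundant members on the FPKM scale. Of these neighbours, *Fcna* and *C1qa* did not differ beyond the spread of their libraries. The endogenous cells had *Clu*, *C4b*, *C1ra*, *Cfb*, *Cr1l*, *C3*, *C2* and *Cd59a* in that order, in which *C1ra* overlapped *Cfb* and *C2* overlapped *Cd59a*. *Clu* and *C3* were the members among the leading 8 of both groups. This depends on the cut, since *Cr1l* ranked 9 in the MSC-derived cells (54.1 to 59.0 FPKM) and overlapped *C3* there (57.2 to 59.5 FPKM).

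Other genes of the system, taken from a list of 30, went both ways too. Of these, 24 were in the table and 13 were tested, with 5 called higher (38.5%, against 31.3% of all genes), 6 called lower (46.2%, against 30.3%) and 2 not called. Their median log2 fold change was -1.39, and without endogenous replicate 1 or 3 the number called lower was 7. The increases were led by subunits of the integrin receptors for iC3b and by another ficolin. *Itgax* stood at 6.82 ± 0.946 FPKM against 0.147 ± 0.0404 FPKM (means ± SD, n = 3), and its log2 fold change was 5.39. *Itgb2* stood at 258 ± 6.59 FPKM against 12.8 ± 2.28 FPKM (means ± SD, n = 3), and its log2 fold change was 4.21. *Itgam* stood at 46.0 ± 0.218 FPKM against 4.88 ± 0.711 FPKM (means ± SD, n = 3), and its log2 fold change was 3.12. *Itgam* and *Itgax* pair with *Itgb2* to form complement receptors 3 and 4, so every chain of both receptors was higher. *Fcnb*, a ficolin stored in neutrophils, stood at 225 ± 3.54 FPKM against 14.3 ± 0.675 FPKM (means ± SD, n = 3), and its log2 fold change was 3.86.

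The decreases among these genes included inhibitors and a lectin. *Serping1* encodes the C1 inhibitor, which blocks C1r, C1s and the lectin proteases, and stood at 124 ± 0.631 FPKM against 584 ± 57.0 FPKM (means ± SD, n = 3), and its log2 fold change was -2.36. This inhibitor of the classical and lectin routes was thus lower where the C1q chains and *Fcna* were higher. *Csmd1*, a membrane inhibitor, stood at 0.05 ± 0.01 FPKM against 0.890 ± 0.148 FPKM (means ± SD, n = 3), and its log2 fold change was -4.20. *Colec12*, a scavenger receptor of the collectin family, stood at 21.9 ± 1.67 FPKM against 131 ± 8.56 FPKM (means ± SD, n = 3), and its log2 fold change was -2.70. These 7 genes had adjusted p-values of 2.13e-05 or less by edgeR with Benjamini-Hochberg adjustment. *C1qbp* was the smallest of the called increases (log2 fold change 0.57, adjusted p = 0.0202) and did not pass when MSC-derived replicate 1 (adjusted p = 0.0684) or 2 (adjusted p = 0.0675) was left out. *Cd59b* and *C1s1* were also lower, and *Vtn* and *Colec11* were not called.

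Markers of several cell types also differed between the groups. All 12 macrophage markers were called higher, by a log2 fold change of 2.86 to 10.80 (median 7.50). This range spans the values of the C1q chains, *Fcna*, *Cfp*, *Vsig4*, *C3ar1* and *C5ar1*. The other members called higher, *Cd93*, *C5ar2*, *Cd55* and *C3*, lay below it. Ranges of other marker sets spanned called members too. Those of the neutrophil (2.29 to 4.63), erythroid (1.52 to 4.56) and B cell markers (0.76 to 4.54) spanned *C5ar1*. That of the endothelial markers (0.44 to 2.17) spanned *C5ar2*, *Cd55* and *C3*. Such overlap of ranges is no test of the source of a transcript. *Timd4* and *Spic*, both macrophage markers, were at 0 counts in endogenous replicate 1, and none of the 12 macrophage markers was at 0 in all endogenous libraries. All 12 neutrophil markers were also higher, with a median log2 fold change of 3.74, as were all 6 erythroid markers (10178 to 10367 against 1542 to 2290.0 CPM), 4 of 6 T and NK cell markers (77.5 to 84.0 against 19.3 to 25.9 CPM), 6 of 8 endothelial markers (84.2 to 91.2 against 20.8 to 32.3 CPM) and 3 of 7 B cell markers (194 to 207 against 16.5 to 21.0 CPM).

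In the other direction, all 9 chondrocyte markers, all 5 osteoblast markers (191 to 204 against 10130 to 13351 CPM) and all 7 fibroblast markers (4619 to 4655 against 70755 to 81064 CPM) were lower in the MSC-derived cells. So were the members *Clu*, *C4b*, *C1ra*, *C2*, *Cfb*, *Cfd*, *C6* and *C7*. Of 6 hepatocyte markers 2 were tested, 1 of them lower, and their summed level was low in both groups, at 0.499 to 0.985 CPM against 6.22 to 6.95 CPM. The part of these cell types in the complement differences was not tested.

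**Figure D4:**
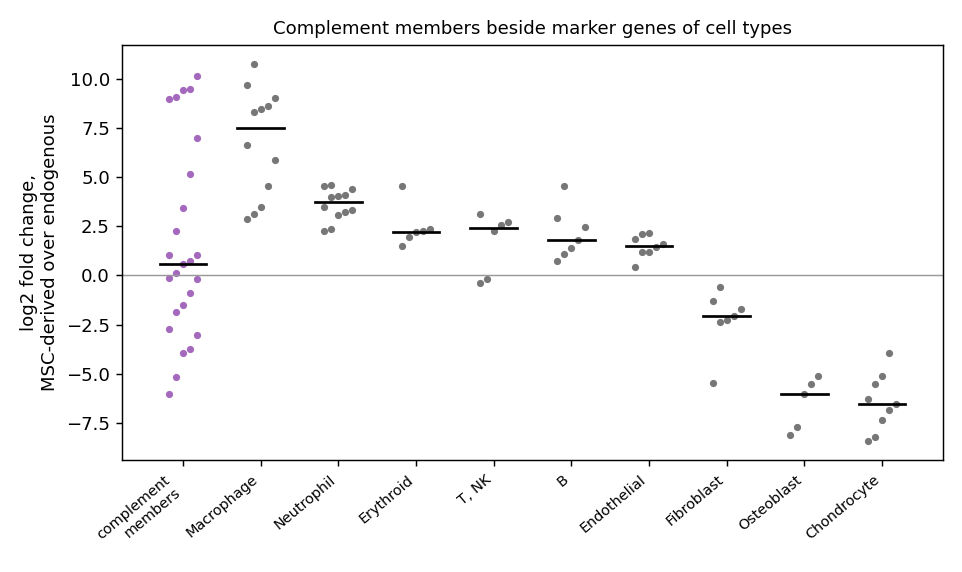
Log2 fold change, MSC-derived over endogenous, of the 25 tested complement members and of the tested marker genes of 9 cell types (1 point per gene, bars at the medians). The members spread from -6.02 to 10.15, on both sides of 0, whereas the chondrocyte markers all lie below 0 and the macrophage markers all lie above 0 with a median of 7.50. Hepatocyte and adipocyte markers, few of which were tested, are not drawn.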

How the data were processed

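The deposited table held 17854 mouse genes. Per the labels, the authors quantified genes with RSEM 1.2.12 after Bowtie2 2.2.5, with build mm9. Their methods name other versions of both tools, so which versions made the values is not certain. The methods also add read filtering with SOAPnuke and HISAT2 alignment. For each library the authors deposited the RSEM expected count (not normalized), FPKM (per transcript length and library size), TPM, and a normalized signal, which was not tested here. Of the table's columns, the 24 of single libraries were mapped by name, and 8 columns of averages were not used. Strand-specific counting is not given in the sources used here.

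Expected counts were rounded, which changed 20.6% of the values, and the test was that of edgeR 4.0.16 under R 4.3.3 (TMM, filterByExpr, glmQLFit, glmQLFTest, no block), with Benjamini-Hochberg adjustment over 14289 genes and a threshold of 0.05. The fit used the whole table, and no test was made on a list. Standard errors come from the F statistic of this test. FPKM is given as mean ± SD over 3 libraries. CPM divides by the library total. Alternatives used DESeq2 1.42.0 and limma 3.58.1 (log2 of FPKM or TPM plus 1, or FPKM plus 0.1, which understates changes of low genes such as *C6*, *Cfd* and *Vsig4*). The scripts were first tested on simulated counts. Figures were drawn with matplotlib 3.10.9.

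All members are named. Values in every library are given for members with a mean of at least 10 FPKM in either group or a called log2 fold change of at least 3 in size, and for the other complement genes the 4 largest called changes in each direction, of which 1 decrease is not reported here. The members and lists were chosen with earlier results of these data known. Promoter windows and gene order come from RefSeq (GRCm38.p6), not from the build of the expression table, and proteins were not used here. Replicate numbers were treated as names. Deviations of same-numbered libraries correlated at 0.0022 to 0.0178, which with 3 libraries per group cannot show that they shared no batch.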

Additional observations from a re-analysis of the deposited data

How the results depend on the processing

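Over the 20 alternatives and the 25 tested members, 477 of 500 fold changes kept their direction and their side of the threshold, 2 lost and 11 gained a call, and 10 turned sign, all of the last in members that were not called: *C8g* (0.01 without MSC-derived replicate 3, 0.12 without endogenous replicate 1, 0.0231 with limma on FPKM plus 1 with or without the filter, 0.0356 with FPKM plus 0.1, and -0.34 to 0.12 over all libraries left out in turn), *Cd59a* (0.0049 with library size only, 0.0105 with limma on FPKM plus 1 with or without the filter, 0.0113 with FPKM plus 0.1) and *Cr1l* (-0.30 on TPM). Members called ranged from 10 (TPM) to 13 higher and from 8 to 11 lower (DESeq2 and TPM), 12 to 13 and 8 to 10 when 1 library at a time was left out, and 11 and 8 at a threshold of 0.001, where all genes gave 2134 higher and 2380 lower. DESeq2 called 10 of the other complement genes lower, against 6. It tested genes that the filter removes, and called *Masp2* and *Mbl1* lower and *Cr2* higher. The median of all genes shifted by -0.40 on TPM (3124 higher, 5962 lower, against 4468 and 4333), by 0.12 with library size only and by 0.13 to 0.14 on FPKM. With the replicate number as a block, 12 members were higher and 8 lower (all genes, 4103 and 3920), and the block changed no call of a member. Depth limits *Cfd*, *C6* and *Vsig4*, which had 15 counts or fewer per library in one group, and the 6 untested members.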
